A study of Mus musculus with 25 samples.

Results

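The genes described here are 41 mouse DNA repair and checkpoint genes, given by name and found by their Ensembl identifiers among the 48795 genes of the expression table. They comprise 14 genes of homologous recombination, 9 Fanconi anaemia genes, 5 genes of non-homologous end joining, 2 of mismatch repair, 2 of base repair, 4 checkpoint kinases and 5 genes of break sensing and chromatin marking. All 41 passed the filter on low values, a mean of at least 10 normalised reads over all libraries, which 14141 genes passed.

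RNA was sequenced from thymocytes of 25 mice, 7 to 8 weeks old, sorted as Thy1.2+ and CD44- to collect cells at DN3 and DN4. Control mice were Wnk1fl/+ (HET) and WNK1-deficient mice were Wnk1fl/fl (KO), and every mouse of both genotypes also carried CD2Cre and was Rag1KO. Cre is driven by the human CD2 promoter and acts in lymphoid cells, so controls keep a single working Wnk1 allele and are not wild type. Without RAG1 the cells cannot rearrange antigen receptor genes and stop at DN3. Mice were left uninjected (0 hr) or received 150 µg anti-CD3ε into the peritoneal cavity, an antibody that stands in for the pre-TCR signal, and were taken at 3, 24 or 48 hr. Each group held 3 mice, except 4 for KO at 0 hr.

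Homologous recombination repairs a broken chromosome by copying the sister chromatid, so it works in cells that are replicating or have replicated their DNA, and its genes are known to be transcribed mainly in dividing cells. The Fanconi anaemia proteins act with it where crosslinks stall a replication fork. Non-homologous end joining instead seals the broken ends directly at any stage of the cell cycle, and in developing lymphocytes it also completes V(D)J recombination, which RAG1 begins and which cannot take place in these mice. Mismatch repair removes errors left by replication, while the kinases ATM, ATR, CHK1 and CHK2 act in the response to damage that holds the cycle.

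Wnk1 itself was lower in KO at each time, with log2 differences of -0.83, -0.99, -0.95 and -1.05 at 0, 3, 24 and 48 hr (adjusted p = 0.00555 to 0.0104), although loxP sites flank only exon 2 and the other exons still give reads. Depth ran from 22.5 to 57.3 megareads per library. The T lineage genes Thy1, Lck, Tcf7 and Bcl11b were high in all libraries, and Cd44, against which cells were sorted, had 16.9 to 741 normalised reads. Other T lineage genes varied: Ptcra ran from 3.06 to 18678 reads, Il2ra from 5645 to 103572 and Notch1 from 7136 to 83785. At 0 hr these averaged 17815, 100821 and 79165 reads in HET and 4627, 69580 and 46974 in KO. A list of 15 markers of B, myeloid, NK, erythroid and epithelial cells summed to 5409 to 6734 in HET at 0 hr and 576 to 891 at 48 hr, and to 3323 to 5620.0 and 1390 to 1889 in KO, with Ms4a1 at 0 in most libraries. The highest at 0 hr were Epcam, Lyz2 and Hba-a1, with means of 3281, 1873 and 661 reads in HET and 2793, 635 and 875 in KO. Libraries at 3 and 24 hr expressed Y-linked genes and those at 0 and 48 hr expressed Xist, and no sequencing lane held 0 hr libraries together with 3 or 24 hr libraries. Time, sex and lane therefore cannot be told apart in comparisons of 3 or 24 hr with 0 hr, and at 0 hr all HET libraries were in lane 1 and all KO libraries in lane 2. In bulk RNA, fewer cells of a kind and less RNA per cell cannot be told apart.

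To see how these genes respond to the signal when WNK1 is present, HET thymocytes were compared with HET at 0 hr. Homologous recombination and Fanconi genes rose at 24 hr: of 23 genes, 12 were called higher and 1, Fancc, lower, and the median log2 difference was 0.99. A gene was called where limma gave a Benjamini-Hochberg adjusted p at or under 0.05 over all genes tested. In this comparison 17% of all genes tested were called higher and 16.9% lower, with a median of -0.01. Of all 41 members 13 rose and 2 fell, and 14 had every 24 hr library above every 0 hr library, against 21% of genes tested.

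Rad51c, a paralogue of the recombinase that carries out strand exchange, showed the largest rise. Its normalised reads were 116, 126 and 143 in HET at 0 hr and 571, 444 and 501 at 24 hr, a 3.92-fold difference (log2 1.97, SE 0.29, adjusted p = 2.26e-05). All 24 hr libraries lay far above all 0 hr libraries. Fancd2, which is ubiquitinated together with FANCI as the central step of the Fanconi pathway, had 369, 345 and 621 reads at 0 hr and 1419, 975 and 1312 at 24 hr. Fanci, its partner, had 347, 419 and 589 reads and then 1293, 857 and 1459. The log2 differences of this pair were 1.504 (adjusted p = 0.00281) and 1.41 (adjusted p = 0.00776), and neither gene's groups overlapped.

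Bard1, the RING partner of BRCA1, had 357, 385 and 728 reads at 0 hr and 1392, 893 and 1508 at 24 hr (log2 1.41, adjusted p = 0.0021). Blm, the helicase that dissolves joint molecules, had 607, 648 and 968 reads and then 2109.5, 1311 and 2372 (log2 1.37, adjusted p = 0.000494). In both genes the third replicate was the highest at 0 hr and the second the lowest at 24 hr, and the groups were still apart. The other members of these pathways that rose were Rad54b (1.29), Brip1 (1.23), Eme1 (1.197), Rad51ap1 (1.181), Fanca (1.11), Rbbp8 (1.09) and Rad54l (0.88), which encode, in that order, a DNA translocase, a helicase, a nuclease subunit, a recombinase cofactor, a subunit of the Fanconi core complex, an end resection factor and another translocase.

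Not every gene of these pathways passed the test. Brca1 had a log2 difference of 0.99 (SE 0.42, adjusted p = 0.0759) and Exo1, a resection exonuclease, of 0.75 (adjusted p = 0.125), with 24 hr libraries that ranged from 948 to 2094 and from 925 to 2127 reads. Brca2, Palb2, Xrcc2, Fancb, Fancl and Fancm had log2 differences of 0.26 to 0.68, and Fancg and Xrcc3 of -0.04 and -0.15, none of them called. Replicate 2 of HET at 24 hr was the lowest of its group for most of the homologous recombination and Fanconi genes, and without it 22 members were called in this comparison. With lane as a covariate only 2 members were called, Xrcc6 and H2afx, both lower, and the median of the 23 genes was 0.03. Only replicate 3 of KO at 48 hr linked the lanes of the 0 hr libraries to those of 24 hr. The lane-adjusted values therefore rest on that library.

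**Figure D1:**
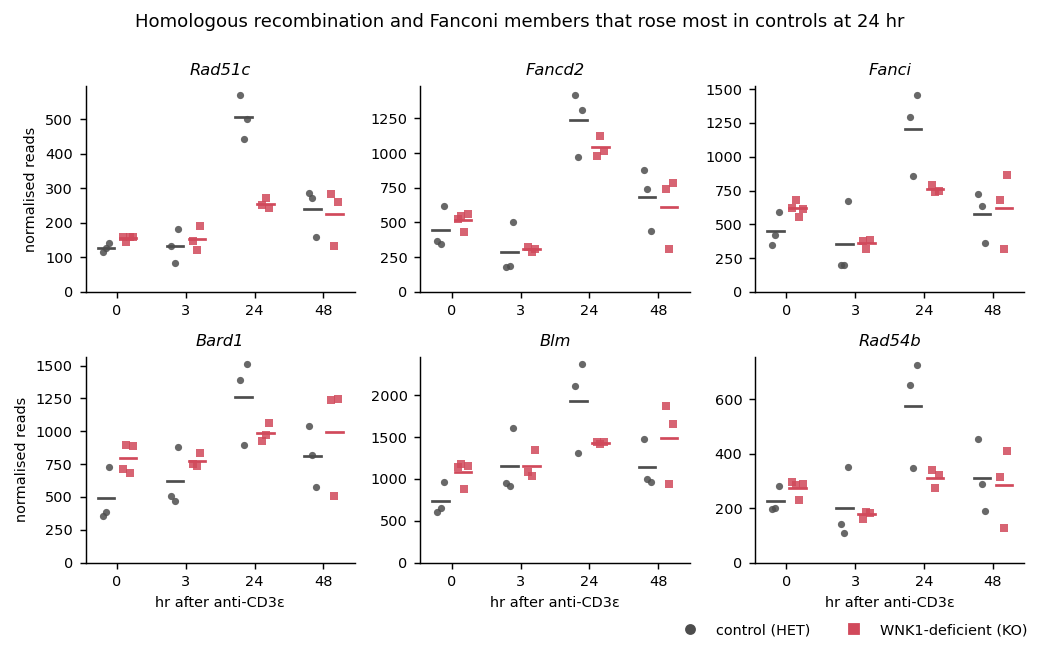
Normalised reads (linear axes from 0) of the 6 homologous recombination and Fanconi genes with the largest rise in HET at 24 hr, against time after anti-CD3ε in hr. Each point is 1 library, circles HET and squares KO, and short lines are group means. HET libraries at 24 hr lie above those at 0 hr in each panel, and KO libraries at 24 hr lie below all HET libraries in the panels of Rad51c, Fanci and Rad54b.

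Fewer genes were called at the other times. At 3 hr 2 members rose, against 18.4% of genes tested, and 5 fell, against 18.5%. Rbbp8 rose from 599, 537 and 678 reads to 1045, 1165 and 1825 (log2 1.11, adjusted p = 0.0118), and Atr, the kinase that answers stalled forks, from 711, 908 and 1078 to 1354, 1874 and 2024 (log2 0.96, adjusted p = 0.035). The groups of both genes did not overlap. Eme1, the partner of the MUS81 nuclease, fell from 271, 256 and 417 reads to 119.7, 85.0 and 208 (log2 -1.25, adjusted p = 0.00651), before its rise at 24 hr. Fancg, a core complex subunit, had 934, 949 and 1024 reads at 0 hr and 577, 633 and 654 at 3 hr (log2 -0.64, adjusted p = 0.000132). The other members that fell at 3 hr were Xrcc6, Chek2 and Fancc. At 48 hr only Rad51c remained called higher (287, 272 and 158 reads, log2 0.85, adjusted p = 0.0208), against 21.6% of genes tested, and 4 members were lower (Xrcc6, Xrcc3, Fancc and Parp1), against 20.8%. The median of the 23 homologous recombination and Fanconi genes was -0.25 at 3 hr and 0.15 at 48 hr.

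In WNK1-deficient thymocytes the same genes were compared with KO at 0 hr. At 24 hr 2 members were called higher (16% of genes tested) and 5 lower (14.3%), and the median over the 23 homologous recombination and Fanconi genes was -0.03. The number called was 2 with lane as a covariate and 18 with only these groups fitted. Fancd2 rose from 521, 548, 431 and 561 reads to 981, 1125 and 1017 (log2 1.02, adjusted p = 0.0255). Rad51c rose from 159, 144, 158 and 159 reads to 251, 272 and 244 (log2 0.72, SE 0.27, adjusted p = 0.0461), a call lost whichever replicate was left out. All KO libraries at 24 hr lay above all those at 0 hr for both genes. At 3 hr 1 member rose, Trp53bp1 (13.3%), and 6 fell (11.3%): Eme1 (-0.91), Xrcc6 (-0.89), Fancb (-0.88), Fancl (-0.64), Fancc (-0.52) and Fancg (-0.37). At 48 hr Trp53bp1 was higher (14.3%) and Xrcc6 and Fancc were lower (12.5%). The comparisons within a genotype share its 0 hr libraries, as do the genotype comparison at 0 hr and the interactions.

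The comparison of the genotypes at each time shows which of these genes differ when WNK1 is lacking. At 24 hr 7 of 41 members were called lower in KO, against 5.45% of genes tested, and 0 higher by limma, edgeR and DESeq2, against 7.03%. At an unadjusted p under 0.05, limma gave 12 members, the 7 called ones included, and 26.8% of genes tested. The log2 difference was below 0 for 37 of the 41 members and for all 23 homologous recombination and Fanconi genes, whose median was -0.53, while that of all genes tested was 0.00. With lane as a covariate all 23 were also below 0, with a median of -0.49. In 16 members every KO library lay below every HET library, against 16.9% of genes tested.

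Xrcc3, a recombinase paralogue that works in a complex with RAD51C, differed most. It had 404, 338 and 622 reads in HET and 169, 188 and 151 in KO at 24 hr, 0.385 times the HET level (log2 -1.38, SE 0.27, adjusted p = 0.00215). Rad51c itself had 571, 444 and 501 reads in HET and 251, 272 and 244 in KO (log2 -0.97, SE 0.29, adjusted p = 0.0296). Neither gene's groups overlapped, and the KO libraries of both lay close together. Xrcc2, another recombinase paralogue, had 475, 381 and 610.2 reads in HET and 352, 362 and 313 in KO, groups that did not overlap either, but was not called (log2 -0.49, adjusted p = 0.154).

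Fancl, the ubiquitin ligase of the Fanconi core complex, had 717, 383 and 693 reads in HET and 283, 292 and 289.6 in KO at 24 hr (log2 -0.99, SE 0.22, adjusted p = 0.00527). Fancc, another core complex subunit, had 356, 396 and 406 reads in HET and 306, 283 and 241 in KO (log2 -0.48, SE 0.14, adjusted p = 0.0234). Both genes' groups were apart. By contrast Fancd2, the substrate of that ligase, had a log2 difference of -0.23 (adjusted p = 0.734), with 981, 1125 and 1017 reads in KO inside the HET range. Brca2, Rad54b, Exo1, Rad54l, Eme1, Fanca, Fancg and Fanci also had all KO libraries below all HET libraries, with log2 differences of -0.31 to -0.83, and were not called.

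Ung, which removes uracil from DNA, had 1472, 1497 and 3142 reads in HET and 960.5, 922 and 1012 in KO (log2 -0.98, SE 0.32, adjusted p = 0.0478), with replicate 3 of HET far above the others. Mre11a, the nuclease of the MRE11-RAD50-NBS1 complex that binds broken ends, had 2629.8, 1903 and 2653 reads in HET and 1687, 1719.7 and 1726 in KO (log2 -0.47, SE 0.14, adjusted p = 0.0296). The remaining called member, Xrcc6, is described with the end joining genes. Without replicate 3 of HET at 24 hr 3 members were called and without replicate 2 of that group 10, and Xrcc3, Xrcc6 and Fancl were called whichever replicate was left out. Within lane 3 the log2 differences of Xrcc3, Fancl and Rad51c were -1.80, -1.27 and -0.93, and within lane 4 they were -1.29, -0.85 and -1.04. Lane 3 held 1 HET library and lane 4 held 1 KO library, so these values have no test. The NK and myeloid markers Ncr1 and Itgax were higher in KO at 24 hr (58.98 to 117.7 reads against 4.93 to 15.0, and 98.3 to 237 against 16.4 to 64.9), while the summed list of 15 overlapped between genotypes, at 1284 to 2407 in HET and 1722 to 2386 in KO. Cd44 averaged 243 reads in HET and 698 in KO, and Ptcra, a marker of the DN3 stage, 839 and 4.31. The part of cell makeup or stage in the results was not tested.

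**Figure D2:**
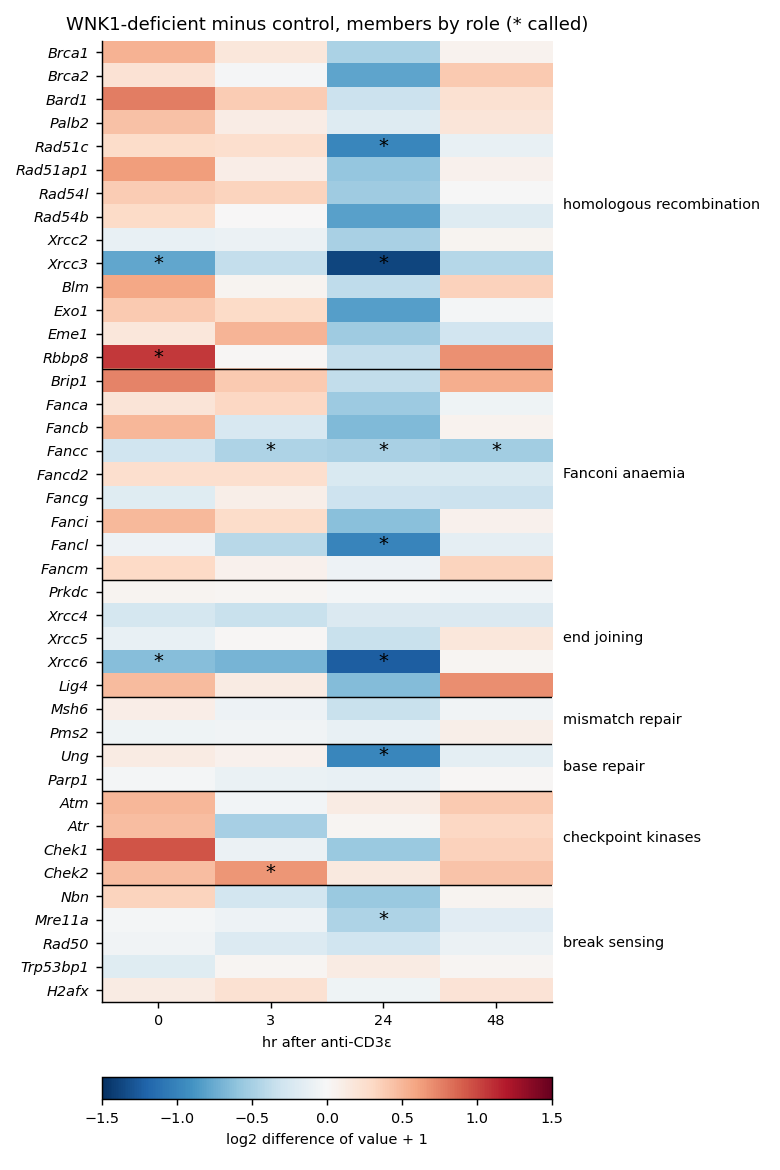
Log2 difference of KO minus HET (value + 1) for all 41 members by role, with 1 column for each time after anti-CD3ε in hr. Blue is lower and red higher in KO, and stars mark called members (adjusted p at or under 0.05). The 24 hr column is blue for all 23 homologous recombination and Fanconi genes, and 7 of its cells carry a star.

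Before the injection the direction was mixed. At 0 hr 1 member was called higher in KO (11% of genes tested) and 2 lower (11.1%), and 18 of the 23 homologous recombination and Fanconi genes had a log2 difference above 0, with a median of 0.30. That direction turned when lane was a covariate, with 5 above 0 and 18 below and a median of -0.46. Only HET at 48 hr held libraries in both lane 1 and lane 2, with replicate 3 alone in lane 1. The lane-adjusted values at 0 hr therefore rest on that library. Rbbp8, which encodes the resection factor CtIP, had 599, 537 and 678 reads in HET and 1531, 1366, 924 and 1307 in KO (log2 1.06, SE 0.31, adjusted p = 0.0174), with no overlap. Xrcc3 was already lower at 0 hr, with 492, 425 and 557 reads in HET and 275, 270.4, 324 and 274 in KO (log2 -0.775, SE 0.26, adjusted p = 0.0341). Lane and genotype coincide at 0 hr, and 0 to 2 members were called when 1 library was left out. The 4 checkpoint kinases had log2 differences above 0 at 0 hr, with a median of 0.48, and none was called. When lane was a covariate 2 of them were above 0 and 2 below. At 3 hr 1 member was higher (5.75%) and 1 lower (3.43%), and at 48 hr none was higher (6.13%) and 1 was lower (6.95%). No member at 48 hr passed in the higher direction by edgeR or DESeq2 either. By limma 3 members of either direction had an unadjusted p under 0.05, against 27.7% of genes tested.

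Fancc was the member whose groups did not overlap at any time. Its KO libraries lay below its HET libraries at each time. Of 14141 genes tested, 2981, 2002, 2392 and 1666 had all KO libraries below all HET libraries at 0, 3, 24 and 48 hr. How many genes tested did so at every time was not counted. At 0 hr the KO libraries of Fancc had 376 to 477 reads against 504 to 545 in HET. These ranges were 283 to 319 against 367 to 462 at 3 hr, and 241 to 306 against 356 to 406 at 24 hr. At 48 hr KO had 281, 269.5 and 298 reads and HET had 428, 432 and 360.4. It was called at 3 hr (log2 -0.46, adjusted p = 0.0362), at 24 hr and at 48 hr (log2 -0.52, adjusted p = 0.0149), and not at 0 hr (log2 -0.30, adjusted p = 0.0985). Fancc also fell from 0 hr at every later time in both genotypes, by 0.35 to 0.64 on the log2 scale. Within lane 4 at 3 hr and lane 1 at 48 hr, each with 1 HET library, its genotype difference was -0.29 and -0.39. Once lane was a covariate it was called at 24 hr only (adjusted p = 0.207 at 3 hr and 0.268 at 48 hr). The call at 3 hr was lost in 5 of 6 fits that left out a replicate, that at 24 hr in 3 of 6 and that at 48 hr in 1 of 6.

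**Figure D3:**
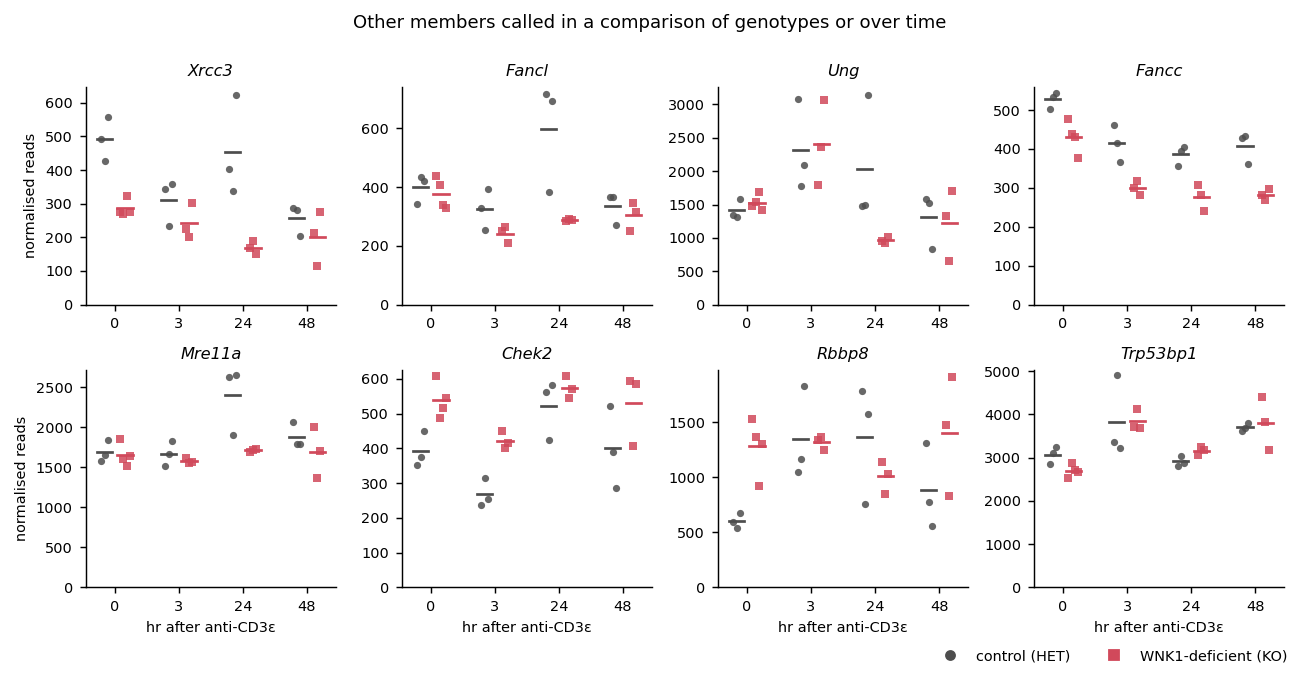
Normalised reads (linear axes from 0) of 8 members called between genotypes or over time, against time after anti-CD3ε in hr. Each point is 1 library, circles HET and squares KO, and short lines are group means. Fancc squares lie below the circles at each time, and Xrcc3, Fancl, Ung and Mre11a squares lie below the circles at 24 hr.

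By limma no end joining gene was called higher at any time in either genotype. Of the partners of the Ku heterodimer, limma without a covariate called 1 lower at each time in both genotypes and the other at none. Xrcc6, which encodes Ku70, had 18461, 19962 and 18669 reads in uninjected HET mice. Its HET libraries held 9323, 8656 and 15100.0 reads by 3 hr, then 5573, 4794 and 10805 by 24 hr, then 4577, 4092 and 3491 by 48 hr. The fall was called at each time, and at 48 hr the level was 0.212 times that at 0 hr (log2 -2.24, SE 0.24, adjusted p = 4e-07). In uninjected KO mice it had 12925, 12477, 11591 and 11890.0 reads. Its KO libraries held 6691, 7016 and 6153 reads by 3 hr, then 2669, 2747 and 3033 by 24 hr, then 3568, 3266 and 6015 by 48 hr, with the largest fall at 24 hr (log2 -2.12, adjusted p = 6.2e-07). KO libraries were lower than all HET libraries at 0, 3 and 24 hr. The genotype difference was called at 0 hr (log2 -0.64, adjusted p = 0.0496) and at 24 hr (log2 -1.23, SE 0.24, adjusted p = 0.00215), not at 3 hr (log2 -0.69, adjusted p = 0.0835), and was 0.03 at 48 hr. At 0 hr the call was lost whichever replicate was left out. Within lane 3 the difference at 24 hr was -2.00 and within lane 4 -0.77.

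Xrcc5, which encodes Ku80, its partner, kept 1564 to 3163 reads in all libraries. It had 2102, 2078 and 2103 reads in HET at 0 hr and 1828, 1730.4 and 1564 at 48 hr, a log2 difference of -0.30 that was not called (adjusted p = 0.0722). At 24 hr it had 2465, 2018 and 3163 reads in HET and 1974, 2045 and 1965 in KO (log2 -0.33, adjusted p = 0.104), and the groups overlapped. It was called there when lane was a covariate (log2 -0.41, adjusted p = 0.0276). Whether the courses of the Ku genes differ was not tested.

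Lig4, the ligase of end joining, had 1536, 1757 and 1842 reads in HET at 0 hr and 1182, 591 and 1556 at 24 hr (log2 -0.73, adjusted p = 0.123). In KO it fell from 2842, 2372, 1858 and 2513 reads to 648, 549 and 782 at 24 hr (log2 -1.86, SE 0.34, adjusted p = 0.000236). At 24 hr the genotypes overlapped (log2 -0.65, adjusted p = 0.256). Xrcc4, its scaffold, had 444, 249.5 and 457 reads in HET and 355, 278 and 330.3 in KO at 24 hr (log2 -0.21, adjusted p = 0.552). Prkdc, the catalytic subunit of DNA-dependent protein kinase, had 1784, 1341 and 2351 reads in HET and 1599.8, 1837 and 1784 in KO (log2 -0.03, adjusted p = 0.957). Its sign turned when replicate 3 of HET was left out, to 0.17. In HET at 48 hr it had 3379.5, 1965 and 3642 reads against 1414, 1856 and 2237 at 0 hr. That difference was called by edgeR (log2 0.69, adjusted p = 0.0463) and by DESeq2 (log2 0.70, adjusted p = 0.0298), and not by limma.

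By limma neither mismatch repair gene was called between the genotypes at 24 hr. Msh6, which recognises mispaired bases, had 5869.7, 4539.6 and 7952 reads in HET and 4782, 4702 and 4759 in KO at 24 hr (log2 -0.33, adjusted p = 0.166). Over time limma called it lower once, in KO at 24 hr, from 6828 to 8168 reads at 0 hr (log2 -0.64, SE 0.14, adjusted p = 0.00142). Without the third replicates of HET at 3 hr, HET at 24 hr and KO at 48 hr, Msh6 (log2 -0.42), Lig4 (-1.03) and Xrcc4 (-0.64) were also called lower in HET at 24 hr (adjusted p = 0.0108 to 0.0322). Pms2, a subunit of the MutL endonuclease, had 1280.0, 1188 and 1518 reads in HET and 1233, 1191 and 1238 in KO (log2 -0.11, adjusted p = 0.595), and its 25 values ran from 956 to 1518. No comparison called it by limma.

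**Figure D4:**
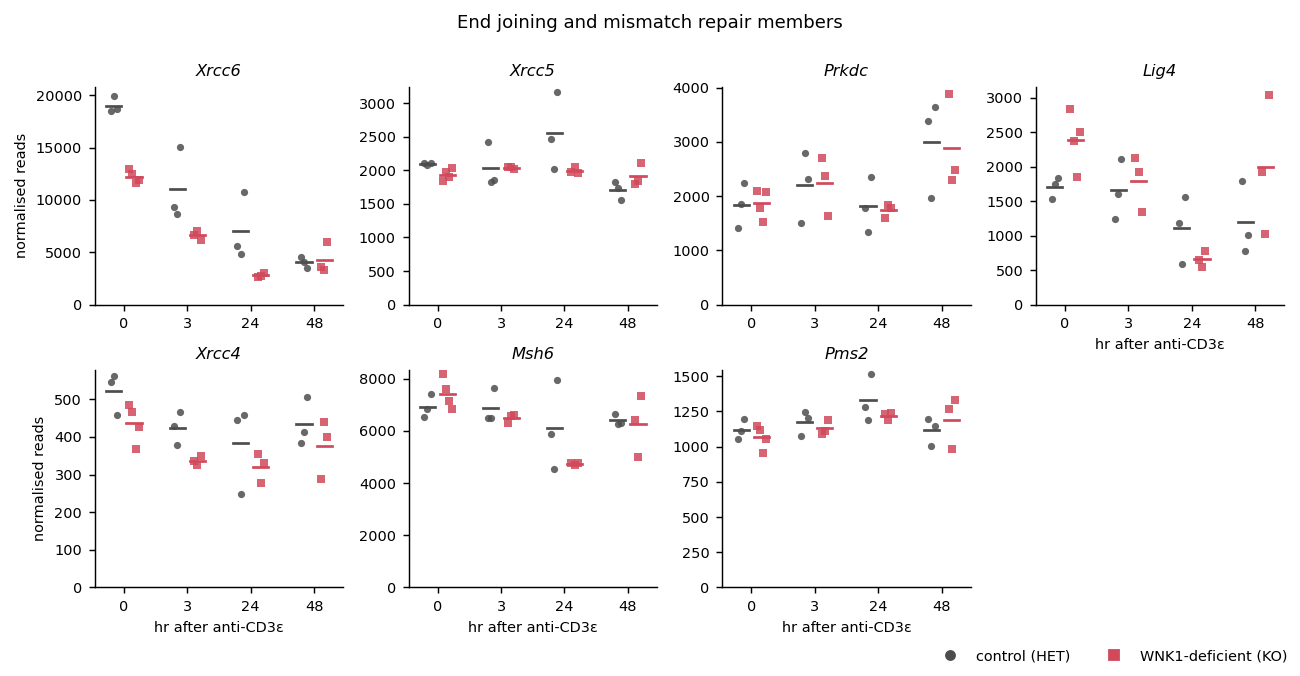
Normalised reads (linear axes from 0) of the 5 end joining and 2 mismatch repair genes against time after anti-CD3ε in hr. Each point is 1 library, circles HET and squares KO, and short lines are group means. Xrcc6 falls from 18461 to 19962 reads in HET at 0 hr to 3491 to 4577 at 48 hr, while Xrcc5 stays between 1564 and 3163.

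Set side by side, the 23 homologous recombination and Fanconi genes and the 7 end joining and mismatch repair genes moved apart at 24 hr in both genotypes. For each library the level of a set was taken as the median, over its genes, of the log2 difference from the HET mean at 0 hr. In HET at 24 hr the recombination and Fanconi level was 1.17, 0.33 and 1.197 and the end joining and mismatch repair level -0.23, -0.61 and 0.20, so the gap between the sets was 1.40, 0.93 and 1.00. In KO at 24 hr the levels were 0.47, 0.33 and 0.52 against -0.53, -0.56 and -0.54, and the gap was 1.00, 0.89 and 1.06. The gaps of the genotypes overlapped at 24 hr, while both levels were lower in KO than in 2 of the 3 HET libraries. At 0 hr the gap was -0.10, -0.20 and 0.19 in HET and 0.35, 0.38, 0.32 and 0.44 in KO, with no overlap. The KO levels at 0 hr were 0.39, 0.35, 0.09 and 0.39 against 0.04, -0.02, -0.22 and -0.05. From KO at 0 hr to KO at 24 hr the median log2 difference was -0.03 for the recombination and Fanconi genes. For the end joining and mismatch repair genes it was -0.44.

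Between the genotypes, the median log2 difference of the recombination and Fanconi genes minus that of the end joining and mismatch repair genes was 0.36, 0.16, -0.20 and 0.00 at 0, 3, 24 and 48 hr. The pooled SD of the libraries' own gap at those times was 0.13, 0.31, 0.19 and 0.47. At 24 hr the medians behind it were -0.53 and -0.33, and 4 of 23 genes and 1 of 7 were called lower, against 5.45% of genes tested. Within lane 3 the medians at 24 hr were -0.73 and -0.65, and within lane 4 -0.44 and -0.09. At 3 hr they were 0.10 and -0.05 over all libraries but -0.42 and -0.23 within lane 4, which held 1 HET library, so the sign of the recombination and Fanconi median turned. At 48 hr they were 0.04 and 0.03 over all libraries, and 0.35 and -0.03 within lane 1, which held 1 HET library, replicate 3. With lane as a covariate the value at 0 hr was -0.52. It rests on replicate 3 of HET at 48 hr, whose recombination and Fanconi level was -0.32, against 0.61 and 0.24 in its group. These are descriptions, since genes of a set are not replicates.

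**Figure D5:**
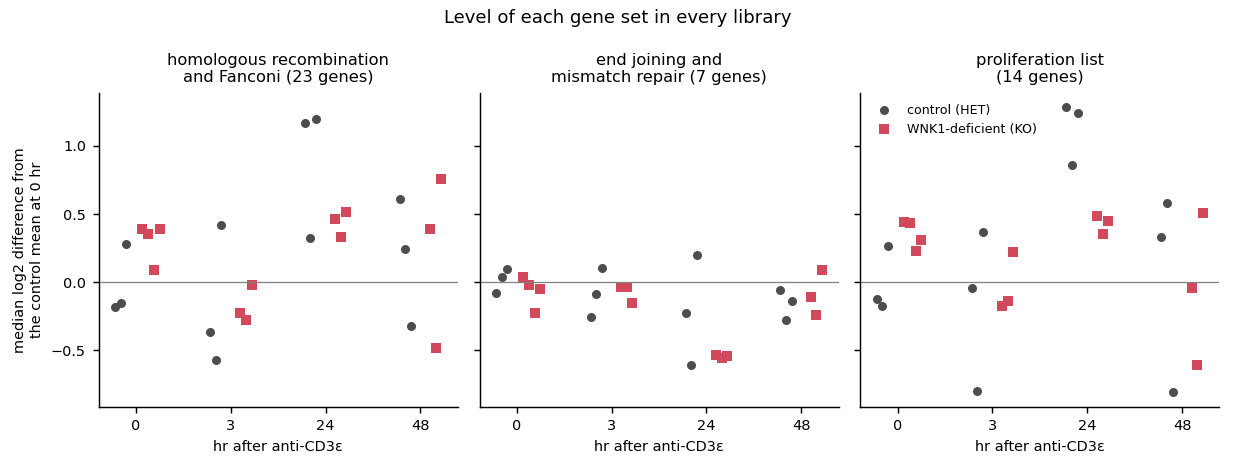
Median over each gene set of the log2 difference from the HET mean at 0 hr, 1 point per library, against time after anti-CD3ε in hr, circles HET and squares KO. The recombination and Fanconi genes reach 0.33 to 1.197 in HET at 24 hr and 0.33 to 0.52 in KO, the end joining and mismatch repair genes reach -0.61 to 0.20 and -0.56 to -0.53, and the proliferation list follows the first set. In KO at 0 hr the sets stand, in that order, at 0.09 to 0.39, -0.22 to 0.04 and 0.23 to 0.44.

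A list of 14 proliferation genes moved with the recombination and Fanconi genes. In HET at 24 hr 11 of the 14 rose, against 17% of genes tested, with a median of 1.07, led by Ccne1, cyclin E1 (log2 2.23, adjusted p = 4.62e-05). Their level per library was 1.29, 0.86 and 1.25 in HET at 24 hr and 0.49, 0.35 and 0.45 in KO. In KO at 0 hr it was 0.44, 0.43, 0.23 and 0.31. From KO at 0 hr to KO at 24 hr the median was 0.10 and 0 of the 14 were called. In that comparison 16% of genes tested were called higher and 14.3% lower. Between the genotypes at 24 hr 4 of the 14 were called lower in KO, against 5.45% of genes tested, with a median of -0.75. Mcm2, a helicase subunit of the replication fork, was the largest of these (log2 -1.02, adjusted p = 0.0104). The part of proliferation in the repair gene results was not tested.

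The base repair, checkpoint and break sensing genes showed less even differences. At 24 hr their median log2 differences of KO from HET were -0.55, 0.08 and -0.30, in that order. Parp1, which marks strand breaks with poly(ADP-ribose), was called once, in HET at 48 hr, with 15978, 15224 and 14461 reads at 0 hr and 12558, 13810.0 and 9996 at 48 hr (log2 -0.34, adjusted p = 0.032). Of the checkpoint kinases, Chek2 was higher in KO at 3 hr, with 236, 314 and 253 reads in HET and 449.7, 400.1 and 415 in KO (log2 0.66, SE 0.20, adjusted p = 0.0374). The groups did not overlap at that time, and the difference within lane 4, with 1 HET library, was 0.73. The call was lost in 5 of 6 fits that left out a replicate. Chek2 had fallen in HET from 353, 376 and 451 reads at 0 hr (log2 -0.55, adjusted p = 0.0317). Chek1, the effector kinase of ATR, had 1407, 517 and 1785 reads in HET and 739, 734 and 744 in KO at 24 hr, groups that overlapped through HET replicate 2 (log2 -0.56, adjusted p = 0.476). Atm and Atr had log2 differences of 0.13 and 0.03 at 24 hr, so the checkpoint kinases held 3 of the 4 members that were not below 0 there.

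Trp53bp1, which shields broken ends from resection and so favours end joining, was the fourth. It rose in KO from 2529.9, 2889, 2727 and 2663 reads at 0 hr to 3709.5, 4129.8 and 3695 at 3 hr (log2 0.51, SE 0.12, adjusted p = 0.00487) and to 4413, 3836 and 3174 at 48 hr (log2 0.48, adjusted p = 0.0057). Each of these libraries lay above all KO libraries at 0 hr. In HET its log2 differences were 0.30 at 3 hr (adjusted p = 0.0802) and 0.27 at 48 hr (adjusted p = 0.102). Both KO calls of Trp53bp1 were lost with lane as a covariate, and its genotype by time interaction was called at neither time. Mre11a rose in HET at 24 hr (log2 0.49, adjusted p = 0.00907), from 1576, 1656 and 1834 reads, while its partners Rad50 and Nbn had log2 differences of 0.06 and 0.43, not called. H2afx, the histone variant phosphorylated at breaks, was called in no comparison by limma without a covariate. It was lower when lane was a covariate in HET at 3, 24 and 48 hr (log2 -1.69, -1.03 and -1.06). The values at 3 and 24 hr rest on replicate 3 of KO at 48 hr, with 11017 reads against 5966 and 5099 in its group. That at 48 hr rests on replicate 3 of HET, with 4002 reads against 6952 and 7847. Without the covariate HET had 8205 to 8498 reads at 0 hr and 8935 to 10001 at 24 hr.

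Whether the response itself differed between the genotypes was tested by the genotype by time interaction. By limma 0 members were called at 3, 24 or 48 hr, against 0.0707%, 0.658% and 1.36% of genes tested, and 1, 14 and 0 members had an unadjusted p under 0.05, against 12.8%, 14.3% and 12.9% of genes tested. edgeR called 0 at each time, and DESeq2 called 1 at 24 hr and 0 at the others. At 24 hr the interaction was below 0 for all 23 homologous recombination and Fanconi genes, with a median of -0.96, but with lane as a covariate it was below 0 for 18, with a median of -0.11. The lane-adjusted 0 hr difference within it rests on replicate 3 of HET at 48 hr. Rbbp8 had an interaction of -1.42 (SE 0.45, adjusted p = 0.148) and Rad51c of -1.25 (SE 0.39, adjusted p = 0.145). A smaller rise from 0 hr in KO was therefore not shown. Without replicate 2 of HET at 24 hr 3 members were called.

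Other genes of the same pathways were counted in lists. Of 18 further homologous recombination and Fanconi genes 3 rose and 2 fell in HET at 24 hr, against 17% and 16.9% of genes tested. The median was 0.23 and the largest rise that of Gen1, a junction resolvase (log2 1.31, adjusted p = 0.0105). Between the genotypes at 24 hr 1 was higher and 1 lower, against 7.03% and 5.45% of genes tested, and the median was -0.13. The lower one was Dna2, a resection nuclease (log2 -1.06, adjusted p = 0.0454). Of 15 further end joining and mismatch repair genes 3 rose and 2 fell in HET at 24 hr, near those shares. Polm, an end joining polymerase related to terminal transferase, went from 22.2 to 42.2 reads at 0 hr to 315 to 863 at 24 hr (log2 4.26, SE 0.37, adjusted p = 4.54e-08). Dntt, terminal transferase, which adds bases at V(D)J junctions, went from 100190.0 to 122450.0 reads to 8104 to 47329 (log2 -2.87, adjusted p = 0.000831) and was lower in KO at 24 hr, at 1666 to 3223 reads (log2 -2.55, adjusted p = 0.00737). Of 15 further checkpoint genes 4 rose and 1 fell in HET at 24 hr, against 17% and 16.9% of genes tested, led by Clspn, the adaptor of CHK1 (log2 1.46, adjusted p = 0.0105). In KO at 24 hr 2 were lower, against 5.45%, led by Tipin, of the fork protection complex (log2 -1.19, adjusted p = 0.0198).

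Since the recombination genes moved together, their promoters were searched for 3 motifs known from cell cycle genes, in RefSeq windows of GRCm38.p6 that run from 250 bases before to 50 after an annotated start. A window was found for 32 of the 41 members. The E2F motif was searched as TTTCCCGC, TTTGGCGC, TTTCGCGC and TTTGCCGC on both strands. It was held by 7 of the 32 members (21.9%), against 4.83% of the 8717 genes tested that had a window and 2.6% of all 27025. It was held by 2 of the 10 members with a window that rose in HET at 24 hr, and by 2 of the 6 end joining and mismatch repair genes with a window. CCAAT was in 18 members (56.2%), against 43.3% of genes tested, and TTTGAA in 2 (6.25%), against 14.2%. In Rad51c 1 match spanned a start and another began 11 bases after a second annotated start, and in Msh6 a match began 15 bases after the start. For the other 5 members the match lay before the start, and 30 bases around it are shown because the same octamer stands in genes that rose (Bard1) and that fell (Xrcc6). Each is written 5′ to 3′ on the strand of the gene, with the motif or its reverse complement in capitals.
Bard1, chr1:71103163-71103192, minus strand: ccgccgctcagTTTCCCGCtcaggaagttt
Brca2, chr5:150522442-150522471, plus strand: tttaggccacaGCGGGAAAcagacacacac
Chek2, chr5:110839820-110839849, plus strand: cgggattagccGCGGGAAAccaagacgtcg
Fancg, chr4:43010335-43010364, minus strand: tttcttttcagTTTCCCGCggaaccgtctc
Xrcc6, chr15:82016312-82016341, plus strand: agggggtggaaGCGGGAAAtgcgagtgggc
All 5 hold TTTCCCGC or its reverse complement. The stretches of Brca2, Chek2, Fancg and Xrcc6 lie inside the span of the gene in the same annotation, since other transcripts start farther upstream, and that of Bard1 lies outside it. A match describes the letters only.

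In that annotation the spans of 15 members overlap a protein-coding neighbour, among them Xrcc6 (Desi1), Fancc (Aopep), Xrcc3 (Klc1), Ung (Alkbh2) and Fancl (Vrk2). Per the study's methods the libraries were stranded and RSEM was set to use the strand, so a neighbour on the opposite strand is counted apart. The strand of each neighbour was not analysed here, and values of members that share a strand with a neighbour are uncertain.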

How the data were processed

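RNA was sequenced from 25 mice in 8 groups, 1 library per mouse, and p-values measure the spread between mice. The deposited table holds a normalised signal per gene, which the authors made by trimming with Trimmomatic 0.36, alignment with STAR 2.5.2a and counting with RSEM 1.2.31 against GRCm38 and dividing by the DESeq2 1.18.1 size factor of each library (R 3.4.1), per the submitters' notes and the study's methods. Whole reads were recovered from the steps of the values (tolerance 0.001). Every column had a labelled sample. Depth was 22.5 to 57.3 megareads and limits the precision of genes near the filter on low values.

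limma 3.58.1 (R 4.3.3) with a trend was fitted to log2(value + 1) of the 14141 genes with a mean of at least 10, with 1 mean per group, and p-values were adjusted by Benjamini-Hochberg within each of 13 comparisons. A gene was called at an adjusted p of 0.05 or less. Fold changes are on the log2(value + 1) scale. Scripts were tested on simulated data. Members and lists were chosen with earlier results of these data known, and 9 of 15 markers of other cells passed the filter. Between genotypes 2 of these were lower at 0 hr, 2 were higher at 24 hr, 1 was higher at 48 hr, and 0 were called at 3 hr by limma. Library values are given for members called between genotypes, for end joining and mismatch repair genes, and for at most 5 members per direction over time, with at most 3 genes of each other list. A few further members were added after their values were seen: Brca1, Exo1, Xrcc2, Chek1 and Fancd2. Samples with the same replicate number did not vary together (r of deviations from -0.20 to 0.20 over 12 pairs). Alternatives were pseudocounts of 0.5 and 5, no filter and a mean of at least 100, a common total, a common upper quartile, edgeR 4.0.16 and DESeq2 1.42.0 on recovered reads, only the groups compared, lane as a covariate, a replicate block, each replicate left out, and 3 libraries left out together (replicate 3 of HET at 3 hr, of HET at 24 hr and of KO at 48 hr). Promoter windows came from RefSeq (GRCm38.p6). Figures were drawn with matplotlib 3.10.9 in Python 3.11.15.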

Additional observations from a re-analysis of the deposited data

Results flagged for a closer look

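In KO at 0 hr, the only group of 4 libraries, an outlier test marked 1 library for 6 members. By chance about 1 of 20 groups would be marked. How many of all genes tested were marked was not counted, so whether 6 members is more than usual was not tested. All of them but Rad51c were marked through replicate 3, so they are not independent. Replicate 3 was low for Brca1, with 799.7 reads against 1187 to 1233, for Rad54b, with 229.5 against 286.5 to 294.6, and for Blm, with 882.7 against 1138 to 1181. It was high for Xrcc3, with 323.8 reads against 270.4 to 275.3, and for H2afx, with 10420.0 against 8586 to 8848. Replicate 2 was slightly lower for Rad51c, with 143.6 reads against 157.7 to 159.1, where the other libraries lay close together.

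For 2 members the genotypes did not overlap at 0 hr or at 24 hr and stood in opposite order. The same held for 1.4% of genes tested. The log2 difference of KO from HET for Rad51c went from 0.27 to -0.97, a change of -1.25 (limma interaction, adjusted p = 0.145). That for Fanca went from 0.19 to -0.54, a change of -0.73 (limma interaction, adjusted p = 0.509).
With lane as a covariate the opposite order was lost, since at 0 hr the log2 difference was -0.54 for Rad51c and -1.46 for Fanca. Those values rest on replicate 3 of HET at 48 hr, the only link between the lanes of the genotypes at 0 hr. It had 158 Rad51c reads, against 287 and 272 in its group, and 266 Fanca reads, against 853 and 829.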

How the results depend on the processing

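The counts of members called kept within 1.5 times of their values under the settings not named here. For KO against HET at 0 hr (3 members) 1 was called with no filter, 11 with only the groups compared and 1 with lane as a covariate. At 3 hr (2 members) 0 were called with no filter and with only the groups compared, and 1 with a common total, a common upper quartile, lane as a covariate and the replicate block. At 24 hr (7 members) 4 were called with a common total, 2 with only the groups compared and 4 with 3 libraries left out. At 48 hr (1 member, Fancc) 2 were called with a mean of at least 100 and by DESeq2, and 0 with a common total, only the groups compared and lane. In HET, 4 were called at 3 hr with no filter (7 otherwise), 2 at 24 hr with lane (15), and at 48 hr 3 with only the groups compared, 9 with lane and 8 with 3 libraries left out (5). In KO, 16 were called at 3 hr with only the groups compared and 0 with lane (7), 18 and 2 at 24 hr (7), and at 48 hr 1 with lane and 9 with 3 libraries left out (3). The interaction at 24 hr gave 1 by DESeq2 and 3 with only the groups compared. With each replicate left out, KO against HET gave 0 to 2, 0 to 1, 3 to 10 and 0 to 5 at 0, 3, 24 and 48 hr (5 without replicate 2 of KO at 48 hr), HET gave 3 to 8, 7 to 22 and 2 to 7 at 3, 24 and 48 hr (7 without replicate 1 of HET at 24 hr, 22 without replicate 2), KO gave 4 to 7, 4 to 6 and 2 to 7, and the interaction at 24 hr 0 to 3. The difference between the medians of the 2 pathway sets was -0.52 at 0 hr with lane as a covariate and 0.52 at 3 hr with 3 libraries left out, and ran from 0.32 to 0.53, 0.0013 to 0.52, -0.29 to -0.14 and -0.38 to 0.20 at 0, 3, 24 and 48 hr with each replicate left out. Prkdc at 24 hr, uncalled at -0.03, was 0.0086 with a common total, 0.17 without replicate 3 of HET and with 3 libraries left out, and 0.03 without replicate 1 of KO, and ran from -0.24 to 0.17 with each replicate left out. The cause was not tested for any of these. Lane 2 was linked to lane 1 only by replicate 3 of HET at 48 hr. Lanes 3 and 4 were linked to lane 1 only by replicate 3 of KO at 48 hr. Values with lane as a covariate that cross such a link rest on 1 library. A common upper quartile moved the median of all genes in HET at 48 hr from -0.01 to -0.12. Since replicate numbers did not pair the samples, the replicate block, which moved by over 1.5 times only the count of KO against HET at 3 hr, says nothing on effect size. Of 48 called values named by the rule, 11 were called under each other setting and 20 with each replicate left out. Depth limits genes near the filter on low values, which all members passed.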
